A study of Mus musculus with 55 samples.

Results

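The neurotrophins are secreted growth factors that keep neurons alive and adjust the strength of their synapses, and the hippocampus is one of the richest sources of BDNF in the brain. In dorsal hippocampus, 8 members of this system were followed, chosen by name: the ligands Bdnf (brain-derived neurotrophic factor) and Ntf3 (neurotrophin 3), the receptors Ntrk2 (TrkB), Ntrk3 (TrkC) and Ngfr (p75NTR), the proneurotrophin receptor and sorting protein Sort1 (sortilin), and 2 products of neuronal activity and BDNF signalling, Nrn1 (neuritin) and Vgf. They are 8 of the 55487 genes of the gene count table and all 8 were among the 16168 genes tested. The 20 transcript rows of Bdnf and Ntrk2 were followed with them, of which 11 were among the 29930 transcripts tested.

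BDNF binds TrkB and neurotrophin 3 binds TrkC, and binding switches on the tyrosine kinase inside the cell. A truncated form of TrkB, common on astrocytes, carries the same ligand-binding part but no kinase. Uncleaved proneurotrophins bind p75NTR together with sortilin instead, and sortilin also directs proBDNF into vesicles that are released with activity.

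The RNA came from 55 mice, 1 library per mouse, on a C57BL/6J background. The WT mice were 5 males and 7 estrus, 5 proestrus, 6 diestrus and 4 metestrus females. Mice without functional Cnih3, an auxiliary protein of AMPA-type glutamate receptors, (KO) were 7 males and 6 estrus, 4 proestrus, 6 diestrus and 5 metestrus females. Stage had been read from the cells of a vaginal lavage. The KO allele is constitutive and lacks an internal exon, which shifts the reading frame. None of the KO mice and 16 of the 27 WT mice came from B6 x B6 parents, the rest from Cnih3 x B6 parents. Parents and genotype therefore cannot be fully separated. Among WT mice, most estrus females came from B6 x B6 parents and most diestrus females from Cnih3 x B6 parents. Parents and stage therefore cannot be fully separated in WT estrus against diestrus either. Ages ran from 10.86 to 23.71 weeks. Among WT mice, males were 12.0 to 23.71 weeks old, estrus females 16.29 to 20.29, proestrus females 12.0 to 18.71, diestrus females 11.71 to 17.14 and metestrus females 13.0 to 18.57. Among KO mice, males were 18.29 to 23.71 weeks old, estrus females 13.0 to 20.71, proestrus females 13.0 to 14.57, diestrus females 10.86 to 23.43 and metestrus females 13.29 to 22.57.

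Totals per library ran from 25881295 to 63547098 gene counts with a median of 53384170. Counts of Cnih3 overlapped between genotypes, at 21.6 to 62.5 CPM (counts scaled to a common library size) in WT and 21.6 to 47.8 in KO mice, but they cover all exons and so do not test for the deleted one. Markers of hippocampal pyramidal cells were present in every library, with a summed level of 1092 to 1521 CPM.

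Of the 12 diestrus mice, 7 stood apart and bear on nearly every stage result below. They were 10.86 to 13.86 weeks old (3 WT, 4 KO), are the mice under 14 weeks in that stage, and are the 7 mice of the series whose label is a single number of 3 digits. The 3 young WT mice had a parent of the Cnih3 line, and most older WT diestrus mice did not. Age, numbering, stage and, in WT, parents therefore cannot be told apart in the 7 young mice. The member and pathway calls against diestrus are given with and without these 7 mice. The 10 mice under 14 weeks in the other groups allow a partial comparison. One further library, KO estrus mouse 12_1, had the highest Bdnf of the series and is described on its own.

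Levels are CPM after TMM scaling. Per kilobase of exon, Nrn1 was the most abundant member, with a median of 120.2 CPM, followed by Sort1 with 20.7, Bdnf with 19.3, Ntf3 with 14.2, Ntrk2 with 9.12, Ntrk3 with 4.57, Vgf with 2.94 and Ngfr with 0.278. Ngfr rested on 10 to 108 counts per library and exceeded 1 CPM in 26 of 55. For each of the 8 members, all 9 pairs of groups next to each other in the order of their medians overlapped in range. The highest group median was between 1.24 times (Nrn1) and 2.86 times (Ngfr) the lowest. In bulk tissue, fewer cells of a type and less RNA per cell cannot be told apart.

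**Figure D1:**
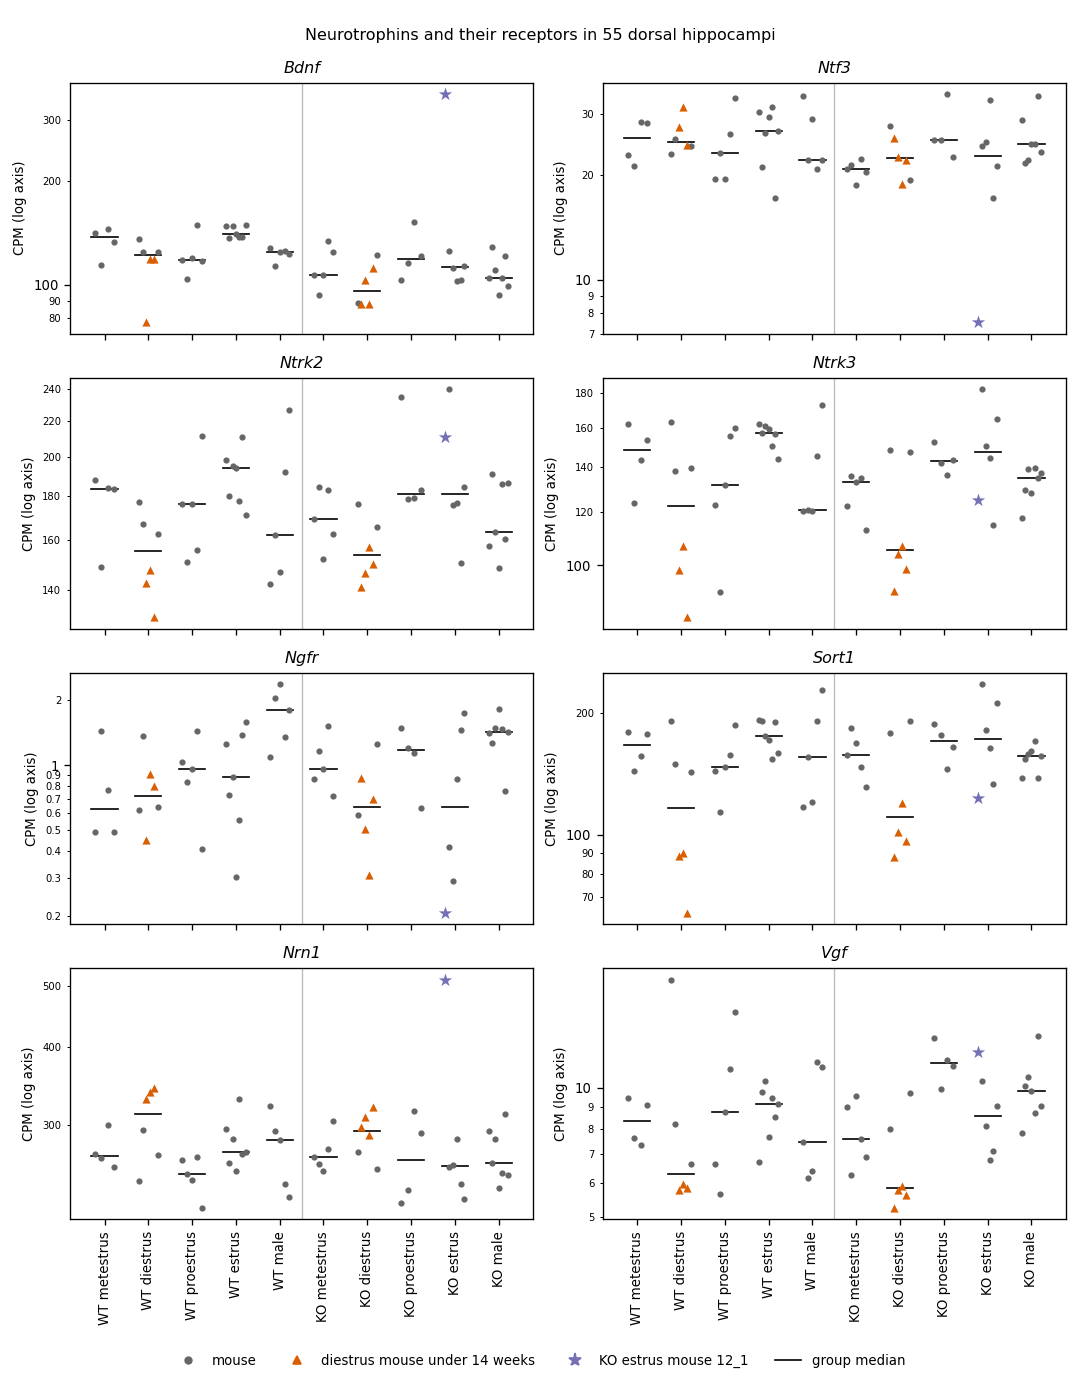
Level of each member in 55 dorsal hippocampi, in CPM on a log axis, by genotype and stage. Points are mice, lines are group medians, triangles are the diestrus mice under 14 weeks and the star is KO estrus mouse 12_1. The triangles lie at the bottom for Sort1, Ntrk3 and Vgf (Sort1 at 64.1 to 119.5 CPM) and the star lies alone at 356.7 CPM for Bdnf.

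Stage differences among the members centred on diestrus. By limma at a false discovery rate (FDR) under 0.05, 5 of 48 member tests between pairs of WT stages passed and 12 of 48 between pairs of KO stages, each of them with diestrus as one side. In WT estrus against diestrus, 4 of 8 members passed and all 4 were higher in estrus (Sort1, Ntrk3, Ntrk2 and Bdnf), where 22.1% of all genes passed and 13.1% were higher. In WT diestrus against metestrus 1 of 8 passed, Sort1, lower in diestrus, beside 7.24% of all genes and 5.59% lower. No member passed in the other WT pairs, where 0.767% of genes passed in proestrus against metestrus, 0% in estrus against metestrus, 9.66% in proestrus against diestrus and 6.82% in estrus against proestrus.

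KO mice gave more calls in the same pairs. In KO proestrus against diestrus 6 of 8 members passed, 5 of them higher in proestrus (Vgf, Sort1, Ntrk3, Ntrk2 and Ngfr) and Nrn1 lower, beside 34.3% of all genes and 19.4% higher. In KO estrus against diestrus 5 of 8 passed, all higher in estrus (Sort1, Ntrk3, Ntrk2, Vgf and Bdnf), beside 30.7% of genes and 19.3% higher. In KO diestrus against metestrus 1 of 8 passed, Sort1, which was lower, beside 10.4% of genes and 8.2% lower. None passed in KO proestrus against metestrus (4.37% of genes), estrus against metestrus (0%) or estrus against proestrus (0.507%). A test of any difference among the 4 stages passed for 3 of 8 members in WT (Ntrk2, Ntrk3, Sort1), beside 31.5% of genes, and for 5 of 8 in KO (those 3, Vgf and Ngfr), beside 36.7%.

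These calls depended on the test and on the 7 young diestrus mice. In the limma fit the young KO diestrus mice had sample weights of 1.61 to 1.74, and the older 2592 and 7_1 had 0.509 and 0.433. The young WT diestrus mice had 0.763 to 1.14, and the older 2_2, 380_4 and 8_1 had 0.327, 0.494 and 0.935. With only the diestrus mice of 14 weeks or more (3 WT, 2 KO), 0 of 48 KO tests passed and 1 of 48 WT tests, which was Ntrk3 in estrus against proestrus. In that fit 0% of the 16080 genes tested passed in WT estrus, KO proestrus or KO estrus against diestrus. The loss of calls there was therefore not particular to the members. Of the 5 WT and 12 KO calls, 1 passed in edgeR, in DESeq2 and in voom without sample weights alike, which was Vgf in KO proestrus against diestrus. Sort1 in WT estrus against diestrus passed without sample weights (0.64, FDR = 0.0381) but in neither of the other tests. Leaving out 1 mouse changed the WT count from 5 to 0 without 548 or 549, to 1 without 569, to 11 without 2_2 or 380_4 and to 12 without 8_1, all diestrus mice. The KO count went from 12 to 7 without diestrus mouse 532. The count for any stage difference went from 8 to 4 without 548, 549 or 569.

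**Figure D2:**
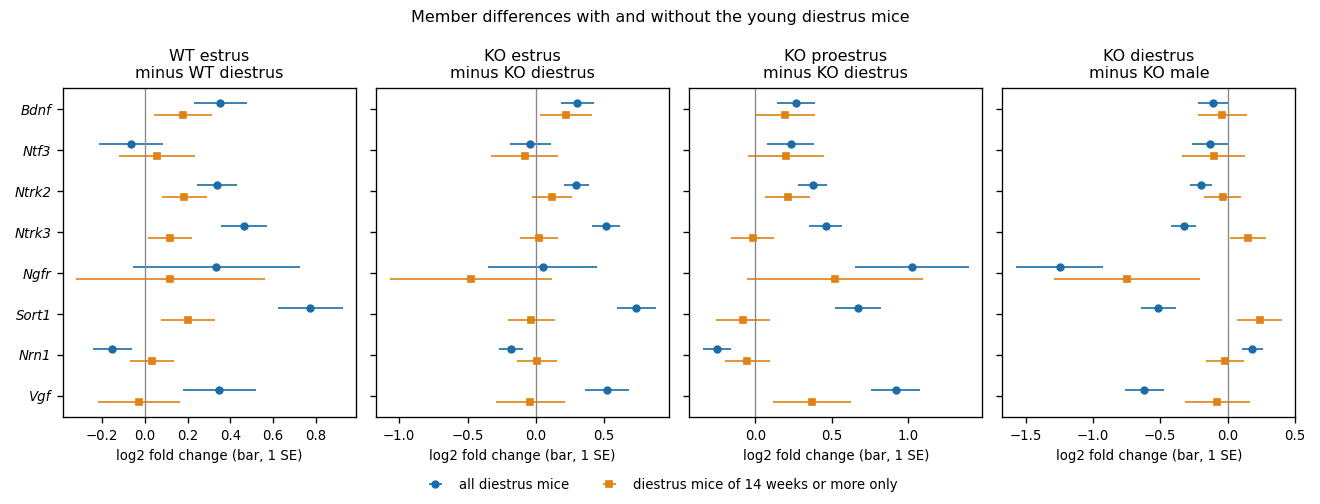
Log2 fold change of each member in 4 comparisons with diestrus, with bars of 1 SE, from all diestrus mice (circles) and from the diestrus mice of 14 weeks or more (squares). For Sort1 the circles lie between 0.51 and 0.78 away from 0 and the squares at 0.20 in WT estrus against diestrus and at -0.03, -0.08 and 0.24 in the KO comparisons.

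Bdnf, the ligand of TrkB, had its highest group median in WT estrus (140.4 CPM) and its lowest in KO diestrus (95.9). In WT estrus the 7 mice had 136.6, 140.4 and 149.6 CPM as lowest, median and highest, and in WT diestrus the 6 mice had 78.0, 121.7 and 135.6. The groups did not overlap. Bdnf was higher in WT estrus than diestrus by 0.35 ± 0.13 (log2 fold change ± SE, FDR = 0.0362). With the diestrus mice of 14 weeks or more the difference was 0.18 (FDR = 0.788), and the call was also lost without 548, 549, 569, or estrus mouse 1_1 or 8_3.

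In KO estrus Bdnf had 102.4, 112.7 and 356.7 CPM as lowest, median and highest, and in KO diestrus 87.8, 95.9 and 122.0. The groups overlapped, and the difference of 0.30 ± 0.12 (FDR = 0.0494) was 0.20 (FDR = 0.0992) without mouse 12_1. The call was lost without any of 7 of the 12 mice compared (estrus 12_1, 12_2 and 9_1, diestrus 2592, 532, 643 and 644). Over all 55 fits that each left out 1 mouse, it was lost in 43 (FDR = 0.0504 to 0.115). Without mouse 12_1 Bdnf passed instead in KO proestrus against diestrus, at 0.27 (FDR = 0.0326), where it had missed the threshold with that mouse (FDR = 0.0989). The 4 KO proestrus mice had 103.7 to 152.4 CPM.

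Ntf3, the ligand of TrkC, passed in none of the comparisons between stages, sexes or genotypes. Its group medians ran from 20.9 CPM in KO metestrus to 26.9 in WT estrus. The widest group was KO estrus, from 7.54 CPM in mouse 12_1 to 33.04. The difference between KO proestrus and diestrus exceeded that of WT by 0.53 ± 0.23 for Ntf3, which did not pass by limma (FDR = 0.346).

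Ntrk2 encodes TrkB, whose 2 main forms split after a shared stretch of coding sequence. Below are the last shared bases (lower case) and the first bases of each form's own coding part (capitals), read from GRCm38 on the plus strand and shown because they are what separates the form with a kinase from the form without one.
Ntrk2-201, full-length: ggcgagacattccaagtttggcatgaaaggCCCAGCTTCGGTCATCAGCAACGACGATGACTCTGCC
Ntrk2-202, truncated: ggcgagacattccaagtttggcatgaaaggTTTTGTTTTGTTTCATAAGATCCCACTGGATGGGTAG
The 2 transcripts share their first 1394 coding bases. The full-length form then continues at chr13:58985803 through 1072 further coding bases to a protein of 821 residues. The truncated form continues at chr13:58932024, where 37 bases lead to a stop and a protein of 476 residues. Ntrk2-207 has the same coding sequence as Ntrk2-201, and Ntrk2-204 the same as Ntrk2-202.

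At the gene level (chr13:58806569-59133970, plus strand) Ntrk2 was lowest in diestrus in both genotypes. WT diestrus mice had 129.95, 155.2 and 177.2 CPM as lowest, median and highest and WT estrus mice 171.3, 194.1 and 210.8, with 1 diestrus mouse, 2_2, inside the estrus range. The difference was 0.34 ± 0.10 (FDR = 0.00970). KO diestrus mice had 141.1, 153.6 and 176.4 CPM, and the 4 KO proestrus mice, at 178.7 to 235.0, all lay above them (0.38 ± 0.10, FDR = 0.00188). KO estrus mice, at 150.5 to 239.8 CPM, overlapped diestrus and were higher by 0.30 ± 0.09 (FDR = 0.0117). With the older diestrus mice alone these 3 differences were 0.18, 0.21 and 0.12, and none passed. Without proestrus mouse 12_4, at 235.0 CPM, the KO proestrus difference was 0.25 (FDR = 0.0949). The WT call was lost without diestrus mouse 548, 549 or 569 (0.22 to 0.24), and the KO estrus call without estrus mouse 12_2 or 9_1 or diestrus mouse 532 (0.20 to 0.26).

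The calls among Ntrk2 transcripts were all of full-length forms. In transcript counts, full-length Ntrk2-201 and Ntrk2-207 were higher in WT estrus than diestrus (0.75 and 0.50, FDR = 0.0108 and 0.0226), in KO proestrus than diestrus (0.57 and 0.48, FDR = 0.0307 and 0.0186) and in KO estrus than diestrus (0.62 and 0.53, FDR = 0.0182 and 0.00950). Ntrk2-207 was also lower in KO diestrus than in KO males (-0.51, FDR = 0.00995), and both passed the test of any stage difference in WT and in KO. These 11 calls are the calls among the 11 tested transcripts of Bdnf and Ntrk2. The share of all tested transcripts called was 4.48% in WT estrus against diestrus, 10.6% in KO proestrus against diestrus, 6.48% in KO estrus against diestrus, 5.16% in KO diestrus against males, 5.07% for any WT stage difference and 8.58% for any KO stage difference. The WT calls were lost without diestrus mouse 548, 549 or 569, and all of the KO calls without diestrus mouse 532. None of the truncated transcripts passed, which does not show that the forms differed in their change, a question put to the share of full-length transcripts below. None of the 11 calls passed with the diestrus mice of 14 weeks or more, with edgeR or without sample weights.

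The share of full-length Ntrk2 is described for the diestrus mice by age, a split made after the data were seen. Of the protein-coding Ntrk2 transcripts per length, 61.1% were full-length on average. The 7 young diestrus mice had 38.0%, 47.1% and 54.7% as lowest, median and highest, and the 5 older diestrus mice had 60.9%, 62.6% and 66.3%. The sets did not overlap. Their means were 47.2% ± 5.25 (SD, n = 7) and 63.5% ± 2.43 (SD, n = 5), a difference of -16.5 points averaged over genotypes. Of the other 48 mice, at 52.6% to 73.5%, 2 lay below the highest young diestrus mouse. The share includes truncated Ntrk2-204, whose estimated count was 0 in 14 of the 55 libraries. Its highest level, 28.2 CPM, was in young KO diestrus mouse 532, which had the lowest share, 38.0%.

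Between the stages as a whole, the share was 54.7% ± 9.58 in WT diestrus and 64.1% ± 3.07 in WT estrus (SD, n = 6 and 7; exact permutation p = 0.0321, adjusted 0.288), and 53.4% ± 10.0 in KO diestrus and 64.7% ± 5.39 in KO estrus (SD, n = 6 each; exact permutation p = 0.0303, adjusted 0.288). None of 18 such comparisons passed after adjustment, so a change in the share between stages was not shown. In the split by age, Ntrk2-201 was lower in the young diestrus mice (-0.63, FDR = 0.00210), as was Ntrk2-207 (-0.61, FDR = 5.3e-05), where 18.7% of transcripts passed. Truncated Ntrk2-202 differed by 0.23 ± 0.11 in the other direction and did not pass (FDR = 0.124). The summed level of astrocyte markers, from cells that express the truncated form, was 3595 to 3931 CPM in the young and 2355 to 3229 in the older diestrus mice, with 8 of 8 markers detected. The markers did not move as one: 2 of 8 passed as higher in the young mice, Aldoc (1896 to 2312 against 954.4 to 1559 CPM) and Aldh1l1 (50.15 to 57.86 against 23.55 to 41.94), and the median difference over the 8 was 0.095 on the log2 scale. In WT estrus against diestrus that median was 0.12, with 2 of 8 lower in estrus. Mouse 12_1 had the highest astrocyte sum together with the highest full-length share, at 73.5%. The part of astrocytes in the result was not tested.

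**Figure D3:**
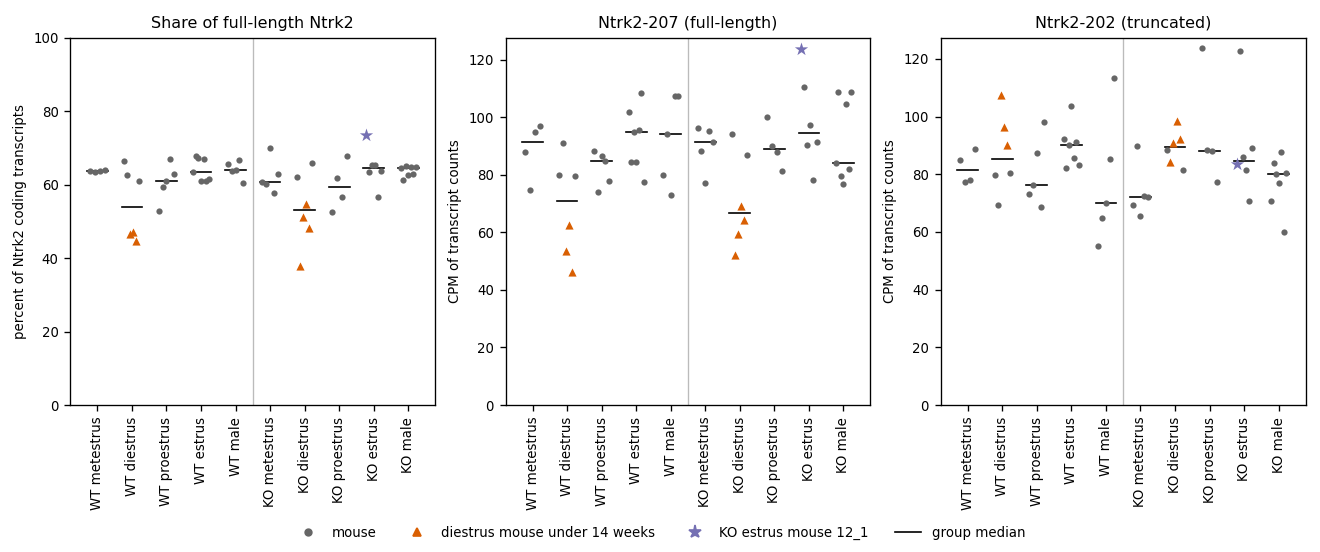
Full-length share of Ntrk2 (percent of protein-coding Ntrk2 transcripts per length) and levels of full-length Ntrk2-207 and truncated Ntrk2-202 (CPM of transcript counts) in 55 mice; lines are group medians. The young diestrus mice (triangles) lie at 38.0% to 54.7% full-length, below the other diestrus mice, at 60.9% to 66.3%, and stand low for Ntrk2-207 but not for Ntrk2-202.

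Ntrk3 encodes TrkC, the receptor of neurotrophin 3. WT diestrus mice had 83.7, 122.3 and 163.2 CPM as lowest, median and highest and WT estrus mice 143.8, 157.1 and 161.7, and 1 diestrus mouse lay above all estrus mice. Estrus was higher by 0.46 ± 0.11 (FDR = 0.00240). KO diestrus mice had 91.5, 105.5 and 148.3 CPM, with the 4 young mice at 107.0 or less and the 2 older ones at 147.3 or more. KO proestrus mice, at 136.1 to 152.2 CPM, were higher by 0.46 ± 0.11 (FDR = 0.000893) and KO estrus mice, at 114.6 to 182.4 CPM, by 0.51 ± 0.10 (FDR = 0.000254), and both overlapped the older diestrus mice. KO diestrus was also lower than KO males, at 117.3 to 139.3 CPM (-0.33 ± 0.09, FDR = 0.00726). With the older diestrus mice alone these differences were 0.12, -0.02, 0.02 and 0.15 and did not pass. Single mice also decided the WT call, lost without 548, 549 or 569 (0.20 to 0.23), and the call against males, lost without 532 (-0.25, FDR = 0.0709).

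Sort1, sortilin, had the largest fold change among the 5 WT calls. WT diestrus mice had 64.1, 116.3 and 190.5 CPM as lowest, median and highest and WT estrus mice 153.7, 175.7 and 192.4. The 3 young WT diestrus mice, at 64.1, 88.4 and 90.02 CPM, lay below every estrus mouse, while 1 of the 3 older mice lay inside the estrus range. Estrus was higher by 0.78 ± 0.15 (FDR = 0.000651), and diestrus was lower than metestrus, at 143.8, 156.2, 177.0 and 179.4 CPM (-0.64 ± 0.16, FDR = 0.0161). Both calls were lost without 548, 549 or 569 (0.37 to 0.40 for estrus and -0.27 to -0.24 against metestrus).

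KO mice showed the same split in Sort1. The 4 young KO diestrus mice had 88.2, 96.3, 101.6 and 119.5 CPM and the 2 older ones 178.7 and 190.8. Sort1 was lower in KO diestrus than metestrus (-0.51, FDR = 0.0152) and than males (-0.51, FDR = 0.00254), and higher in KO proestrus (0.67, FDR = 0.000512) and estrus (0.73, FDR = 0.000168) than diestrus. With the older KO diestrus mice alone the signs of all 4 turned, to 0.25, 0.24, -0.08 and -0.03, none of which passed, and the call against metestrus was lost without 532, 643 or 645. In WT, with the older diestrus mice, the differences were 0.20 for estrus and -0.07 against metestrus.

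Ngfr encodes p75NTR, which in the adult forebrain is made chiefly by cholinergic neurons whose cell bodies lie outside the hippocampus, and it was near the detection limit. Its highest group medians were in males, 1.80 CPM in WT and 1.42 in KO. WT males had 1.09, 1.355, 1.80, 2.04 and 2.36 CPM and KO males 0.758, 1.42 and 1.82 as lowest, median and highest. KO diestrus mice had 0.312, 0.641 and 1.26 CPM and were lower than KO males (-1.25 ± 0.33, FDR = 0.00314). KO estrus mice had 0.208, 0.638 and 1.74 CPM and were also lower (-1.20 ± 0.35, FDR = 0.0270). Both overlapped the males. The estrus call was lost without KO estrus mouse 12_2 or 12_3 or KO male 2591.

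Ngfr was also higher in KO proestrus, at 0.635, 1.14, 1.20 and 1.48 CPM, than in KO diestrus (1.03 ± 0.37, FDR = 0.0287), a difference of 0.52 with the older diestrus mice (FDR = 0.896). This call was lost without proestrus mouse 12_4 or 12_5 or diestrus mouse 643 or 644 (0.77 to 0.99). Its test of any KO stage difference, at FDR = 0.0499 by limma, was lost in 38 of the 55 fits that each left out 1 mouse (FDR = 0.0502 to 0.135), mouse 12_1 among them. In WT, the differences of Ngfr from males were -1.15 in metestrus, -1.22 in diestrus and -0.88 in estrus, and none of these passed (FDR = 0.998, 0.164 and 0.592). Of the 4 cholinergic marker genes listed, Chat, Slc5a7 and Slc18a3 stayed at or below 0.661 CPM and 1, Ache (acetylcholinesterase), passed the filter on low counts. With the other markers that low, Ache alone cannot stand for cholinergic cells. Where Ngfr was called, Ache was called in the same direction. It was -1.33 in KO diestrus against males (FDR = 9.8e-10), -0.50 in KO estrus against males (FDR = 0.0194) and 1.18 in KO proestrus against diestrus (FDR = 8.3e-07). With the older diestrus mice alone the first and last of these were -0.61 and 0.46, and neither passed. Ache was also called where Ngfr was not. These were WT proestrus and estrus against diestrus (0.81 and 0.51, FDR = 0.00624 and 0.0230), KO estrus against diestrus (0.83, FDR = 0.000104) and KO diestrus against metestrus (-0.88, FDR = 0.000418). The part of cholinergic fibres in the Ngfr result was not tested.

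Nrn1, neuritin, a membrane-anchored protein that promotes neurite growth, went the other way from the receptors in the young diestrus mice. KO diestrus mice had 255.6, 294.1 and 321.4 CPM as lowest, median and highest and the KO proestrus mice 226.0, 237.2, 292.3 and 316.6. The groups overlapped, and proestrus was lower (-0.25 ± 0.09, FDR = 0.0279), with a difference of -0.05 with the older diestrus mice. The call was lost without proestrus mouse 12_4 (-0.12) or 12_5 (-0.14) or diestrus mouse 532, 643 or 645. In estrus against diestrus Nrn1 passed without mouse 12_1 (-0.25, FDR = 0.0105) and not with it (-0.18, FDR = 0.107).

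Vgf, a secreted precursor of neuropeptides induced by neurotrophins, gave the call that held under most tests. The 4 KO proestrus mice had 9.91, 11.2, 11.6 and 13.0 CPM and the 6 KO diestrus mice 5.26, 5.85 and 9.70 as lowest, median and highest, without overlap. The difference was 0.92 ± 0.16 (FDR = 2.7e-05), a fold of 1.89. It passed with edgeR (0.77, FDR = 0.0357), with DESeq2 (0.76, FDR = 0.0201), without sample weights (0.79, FDR = 0.0223) and with each of the 10 mice left out. With the 2 older diestrus mice, at 8.01 and 9.70 CPM, it was 0.37 ± 0.25 and did not pass (FDR = 0.844).

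KO estrus mice had 6.81, 8.60 and 12.1 CPM of Vgf and were higher than diestrus by 0.52 ± 0.16 (FDR = 0.0120), against -0.04 with the older diestrus mice, a call lost without estrus mouse 12_2 or diestrus mouse 532. KO diestrus was lower than KO males, at 7.86 to 13.2 CPM (-0.62 ± 0.15, FDR = 0.00115), against -0.08 with the older mice. In WT diestrus, 1 mouse, 2_2, had 17.8 CPM while the other 5 had 5.79 to 8.24.

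Against males, 5 of 32 KO member tests passed and 0 of 32 WT tests (4 at an unadjusted p under 0.05, and 0 with edgeR or DESeq2). In KO diestrus 4 of 8 members were lower (Ngfr, Vgf, Ntrk3, Sort1), where 28.7% of all genes passed and 18% were lower. In KO estrus 1 of 8 was lower, Ngfr, where 7.66% of genes passed and 3.34% were lower. None passed in KO metestrus (0.359% of genes) or proestrus (0.315%), nor in any WT group (0.0495% of genes for estrus, 0.0309% for proestrus, 0.068% for diestrus, 0.0309% for metestrus). The WT count moved with single males and diestrus mice: it was 5 without male 19_1, 1949 or 2015, 3 without diestrus mouse 380_4 or 8_1 and 2 without 2_2. With edgeR, DESeq2 or no sample weights none of the 5 KO calls passed.

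Sort1, Ntrk3, Vgf and Ntrk2 were lower in the young than in the older diestrus mice. Across both genotypes 5 of 8 members differed, beside 35.5% of all genes, in a comparison set up after the data were seen. Of the 16168 genes tested, 3243 were lower and 2499 higher in the young mice. Young minus older, the log2 difference was -0.91 ± 0.12 for Sort1 (FDR = 3.5e-08), -0.57 ± 0.09 for Ntrk3 (FDR = 2.5e-06), -0.61 ± 0.16 for Vgf (FDR = 0.00347) and -0.23 ± 0.09 for Ntrk2 (FDR = 0.0459). Nrn1 was higher by 0.26 ± 0.09 (FDR = 0.0166). Bdnf, Ntf3 and Ngfr differed by -0.19, 0.08 and -0.39 and did not pass. Sort1 and Ntrk3 passed in WT and in KO alone, and a genotype difference in their split did not pass (FDR = 0.994 and 0.982). Vgf and Nrn1 passed in WT alone (FDR = 0.0460 and 0.0320) and not in KO (FDR = 0.0825 and 0.329).

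The young diestrus mice were also set beside the mice under 14 weeks in other groups, which were not matched to them in age or parents. Their ages were 10.86 to 13.86 weeks (median 11.71), and those of the 10 others 12 to 13.57 (median 13). Sort1 was 64.1 to 119.5 CPM in the young diestrus mice and 113.9 to 187.6 with a median of 166.9 in the 10 other mice under 14 weeks. Ntrk3 was 83.7 to 107.0 CPM against 91.4 to 161.7 with a median of 138.9, and Vgf was 5.26 to 5.97 against 5.66 to 13.0 with a median of 9.74. Over all 48 other mice, 2 lay below the highest young diestrus mouse for Sort1, 1 for Ntrk3 and 1 for Vgf. For Nrn1, the young diestrus mice had 290.0 to 343.4 CPM and the other 48 had a median of 266.9.

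Markers of some other cell types differed in these 7 libraries, while those of others did not. Beside the astrocyte sum given above, the summed level of 10 mature oligodendrocyte markers was 3202 to 4116 CPM in the young and 3507 to 5743 in the older diestrus mice. That of 5 oligodendrocyte precursor markers was 20.2 to 33.05 against 29.0 to 41.7, that of 6 microglia markers 116.7 to 138.7 against 142.0 to 170.7, that of 8 dentate granule cell markers 274.2 to 353.0 against 345.8 to 464.7, that of 9 choroid plexus markers 133.6 to 1150 against 27.6 to 175.4 and that of 5 blood markers 158.0 to 252.7 against 183.4 to 398.1. No marker of these lists was at 0 in these libraries. In the young against the older diestrus mice 35.5% of all genes passed, 3243 of the 16168 tested as lower and 2499 as higher. Called as lower were 6 of 10 oligodendrocyte, 2 of 5 precursor, 3 of 6 microglia and 5 of 8 dentate granule cell markers. Choroid plexus had 1 of 9 higher, and blood 0 of 5 and endothelium and pericytes 0 of 6 called. Of 9 pyramidal cell markers 2 were higher and 4 lower, and of 7 interneuron markers 1 was higher and 1 lower. In WT estrus against diestrus, where 13.1% of all genes were higher, 6 of 10 oligodendrocyte, 4 of 5 precursor, 5 of 5 blood, 5 of 8 dentate granule cell and 2 of 6 microglia markers passed as higher. In KO proestrus against diestrus, where 19.4% of all genes were higher, these counts were 7 of 10, 5 of 5, 4 of 5, 1 of 8 and 3 of 6. With the diestrus mice of 14 weeks or more, 0 markers passed by limma in either comparison, of which 0 and 6 of the 10 oligodendrocyte markers had an unadjusted p under 0.05. The part of cell makeup in the member results was not tested.

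Between genotypes no member passed. None of 48 tests passed (3 at an unadjusted p under 0.05, 0 with edgeR or DESeq2), where the share of all genes called was 0.00619% for males, 0.179% for estrus, 0.315% for proestrus, 0% for diestrus, 0.0247% for metestrus and 3.4% for the mean of the 5. The nearest was Bdnf, with a mean KO minus WT difference of -0.18 ± 0.06 (FDR = 0.0705). Its median was 104.8 CPM in KO and 124.3 in WT males, 112.7 and 140.4 for estrus, 95.9 and 121.7 for diestrus and 107.2 and 137.3 for metestrus, but 118.7 and 118.4 for proestrus. In estrus all 7 WT mice, at 136.6 to 149.6 CPM, lay above 5 of the 6 KO mice, at 102.4 to 125.3, and below mouse 12_1 (-0.25 ± 0.11, FDR = 0.384).

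Bdnf passed in the mean genotype difference without mouse 12_1 (-0.20, FDR = 0.00571), and likewise without WT diestrus mouse 548, 549 or 569, KO proestrus mouse 14_1 or KO metestrus mouse 6_1 (FDR = 0.0146 to 0.0460). With edgeR it was -0.10 (FDR = 0.761) and with DESeq2 -0.10 (FDR = 0.769). No stage difference of a member differed between genotypes: 0 of 48 interaction tests passed (7 at an unadjusted p under 0.05, 0 with edgeR or DESeq2). Of all genes, 0% passed in each of the 6 interactions. The lowest FDR was 0.258, for Ntf3 in proestrus against metestrus (0.53 ± 0.23), and for Vgf in proestrus against diestrus the KO difference exceeded that of WT by 0.63 ± 0.25 (FDR = 0.334). Without WT diestrus mouse 569, 1 of the 48 passed.

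The KO estrus mouse 12_1 had a neurotrophin profile unlike any other library. Bdnf was 356.7 CPM, 2.98 times the median of the other 54 mice, whose highest value was 152.4. Nrn1 was 511.2 CPM against at most 343.4 elsewhere. Ntf3 was 7.54 CPM against at least 17.2, and Ngfr was 0.208 CPM (10 counts) against at least 0.290. Ntrk2, Ntrk3, Sort1 and Vgf lay inside the range of the other mice.

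Genes that report recent neuronal activity split in this mouse, and those named here were chosen after their values were seen. Fos, an immediate early gene, was 81.2 CPM against at most 39.7 elsewhere, Homer1 182.9 against 111.8, and Nptx2, a secreted synaptic pentraxin, 32.7 against 16.5. The proneurotrophin convertase Pcsk1 was 16.9 CPM against at most 8.77, and tissue plasminogen activator Plat 31.1 against 27.2. Arc, Egr1, Junb and Nr4a1 lay inside the range of the others, at 144.5, 152.6, 21.8 and 62.6 CPM. Npas4, an activity-induced regulator of Bdnf, was 1.37 CPM, below the lowest of the others at 1.68. Above the other mice lay 3 of 10 activity and BDNF induced genes, 2 of 10 other ligands and receptors, 2 of 7 processing genes, 1 of 14 adaptors and 1 of 7 regulators of Bdnf transcription.

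**Figure D4:**
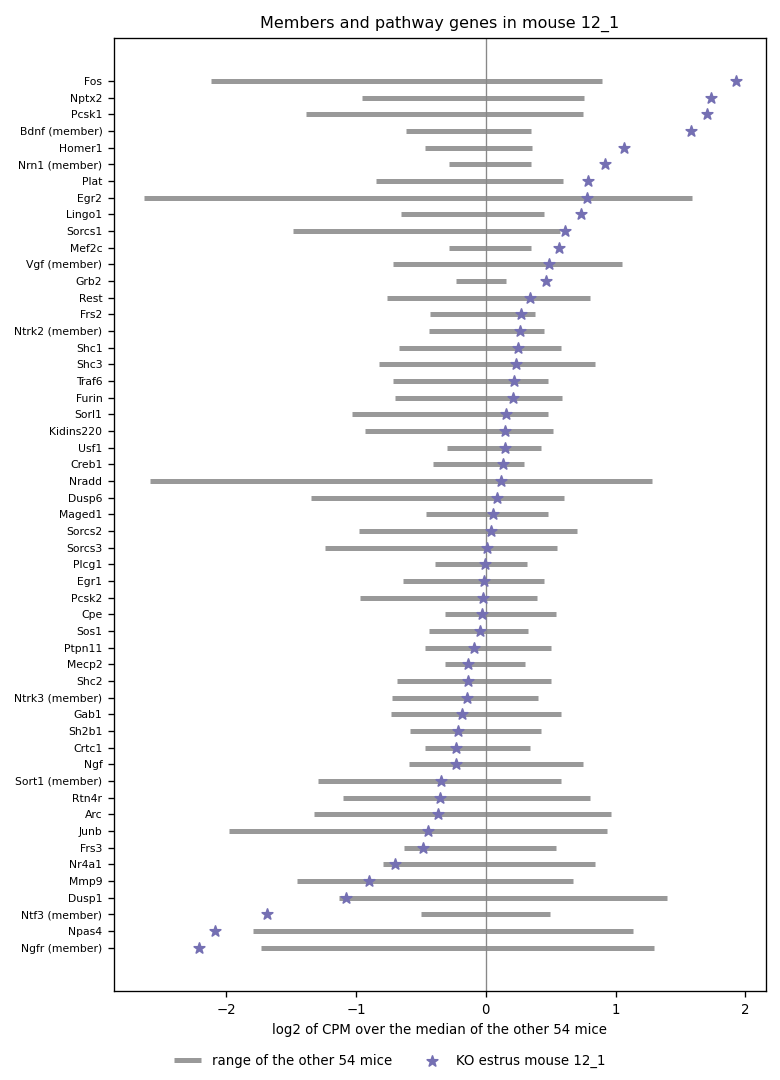
Members and pathway genes in KO estrus mouse 12_1 (stars) against the range of the other 54 mice (bars), as log2 of CPM over the median of those 54. Fos, Nptx2, Pcsk1, Bdnf, Homer1 and Nrn1 lie to the right of their bars (Bdnf at 2.98 times the median), and Ntf3, Npas4 and Ngfr to the left.

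Mouse 12_1 differed from the rest of the transcriptome as well: 7.17% of genes had their highest and 5.36% their lowest value in it. One library held more highest and 3 held more lowest values. The sum of astrocyte markers was 4331 CPM, the highest of the 55, of which Gfap alone made 1972, and the sample weight in the fit was 0.392. The part of these in its neurotrophin levels was not tested.

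Bdnf is transcribed from several promoters, each with its own first exon spliced to a common coding exon. Promoter IV answers to calcium and CREB, the factor that binds the cAMP response element. The exon VI transcript Bdnf-205 held 67.6% of Bdnf per length on average, the exon IV transcript Bdnf-209 22.4%, and the exon II transcripts Bdnf-210 and Bdnf-207 5.69% and 3.50%. The 250 bases before the start of Bdnf-209 are given below (GRCm38.p6, RefSeq, chr2:109692186-109692435, plus strand), because this was the one of 7 Bdnf windows in the table that held the response element core TGACGT. The capitals mark it, read on the opposite strand, 36 bases before the start.
Bdnf exon IV, 250 bases upstream: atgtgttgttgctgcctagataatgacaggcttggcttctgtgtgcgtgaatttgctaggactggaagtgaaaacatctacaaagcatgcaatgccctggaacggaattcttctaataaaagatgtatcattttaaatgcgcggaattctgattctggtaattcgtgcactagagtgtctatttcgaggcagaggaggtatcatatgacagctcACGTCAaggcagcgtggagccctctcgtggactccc
The core TGACGT, searched on both strands, was present in 6.47% of 32851 promoter windows of this length. The palindrome TGACGTCA, which contains it, was present in 1.55% of all windows and in no Bdnf window, and the E-box CACGTG in 6.02% of all and in no Bdnf window. The starts of the exon VI transcript Bdnf-205 and of the exon II transcripts Bdnf-207 and Bdnf-210 have no window there and were not searched. Windows matched for Bdnf (7), Ntf3 (2), Ntrk2 (1) and Ngfr (1), and 1 Ntf3 window held an E-box, 231 bases before the start.

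In mouse 12_1 all 4 main Bdnf transcripts had their highest level, but not in equal measure. The exon IV transcript was 126.0 CPM, where the highest mouse of each other group had between 32.7 (KO males) and 46.8 (WT diestrus). The exon II transcripts Bdnf-210 and Bdnf-207 were 61.3 and 36.3 CPM, and the exon VI transcript 173.2. The share of exon VI was therefore 43.6%, below the 56.1% to 77.2% of the other 54 mice, and that of Bdnf-210 was 14.9%, above the 1.73% to 11.4% of the others. The share of Bdnf-209, at 31.8%, lay inside their range of 11.2% to 35.4%, and the full-length share of Ntrk2, at 73.5%, above theirs of 38.0% to 69.9%.

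**Figure D5:**
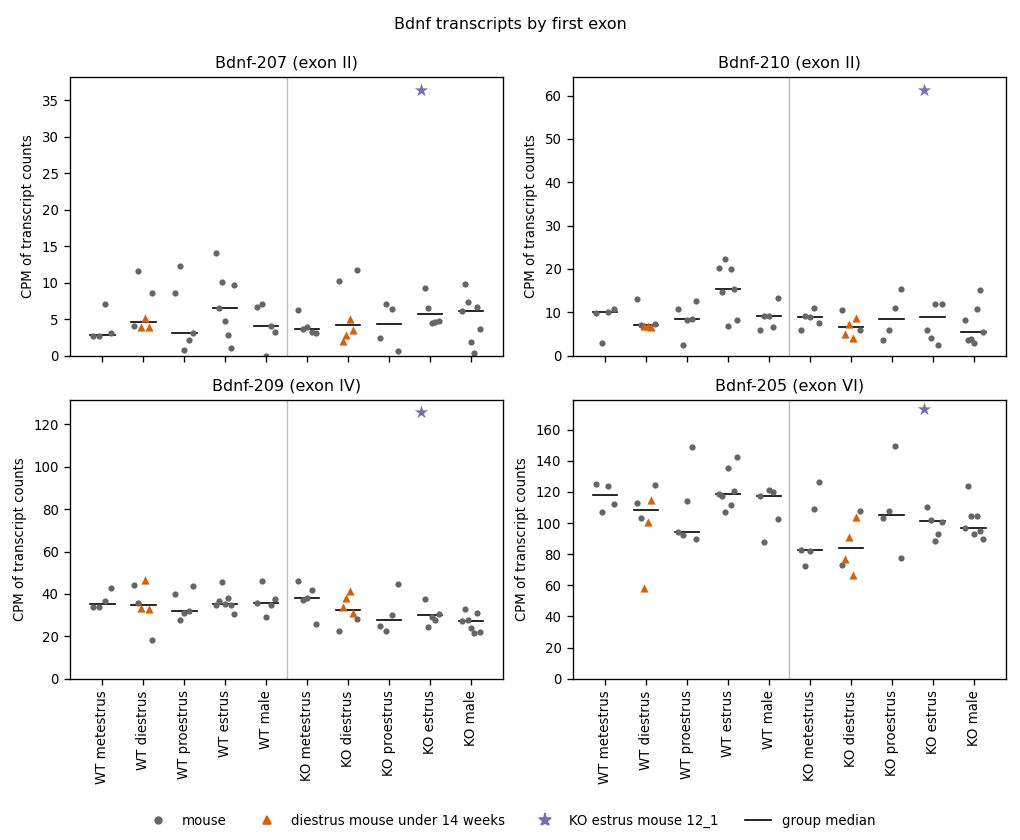
Levels of 4 Bdnf transcripts, named by first exon, in CPM of transcript counts by group; lines are group medians. Mouse 12_1 (star) is the highest mouse in each panel, at 36.3, 61.3, 126.0 and 173.2 CPM.

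Between groups, none of the Bdnf transcripts passed in any stage, sex or genotype comparison. Of 54 tests on the shares of Bdnf-205, Bdnf-209 and Bdnf-210, 0 passed after adjustment and 2 had an unadjusted p under 0.05 by exact permutation. In diestrus, the share of Bdnf-209 was 27.9% ± 5.50 (SD, n = 7) in the young and 19.4% ± 5.40 (SD, n = 5) in the older mice, given as a description. The exon I transcript is not analysed here.

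The genes whose log2 CPM followed each member most closely over the 55 libraries are given as a description, since the libraries share groups, depth and the young diestrus mice. Sort1 went with the ion transporter genes Slc24a2 and Slc8a1 and the sodium channel Scn2a (Pearson r = 0.972, 0.968 and 0.963), and Ntrk3 with Scn8a, Shisa7 and Grin2b (0.954, 0.950 and 0.950). Among the members, Ntrk3 and Sort1 were most alike (0.923). Ntrk2 went with Fam171a1 and Gabrb1 (0.816 and 0.814), Vgf with Adgrb1, Nrxn2 and Lingo3 (0.841, 0.820 and 0.813), and Nrn1 with Pisd, Dok5 and Tubb2b (0.842, 0.839 and 0.818). Bdnf went with Inhba, Penk and Rgs2 (0.826, 0.768 and 0.722), values that were 0.655, 0.498 and 0.398 without mouse 12_1. Ntf3 went with Mapk3, Tdo2 and Nt5dc2 (0.793, 0.769 and 0.763, and 0.604, 0.511 and 0.642 without that mouse) and Ngfr with Paqr4, Alg1 and Pik3ip1 (0.638, 0.635 and 0.634). The correlation of Bdnf with Nrn1, 0.462, was 0.056 without mouse 12_1.

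The rest of the pathway, 48 listed genes of which 45 were tested, was described in the same comparisons. In WT estrus against diestrus 12 were higher and 2 lower (31.1% called beside 22.1% of all genes, median log2 fold change 0.28), in KO proestrus against diestrus 20 higher and 5 lower (55.6% beside 34.3%, 0.33) and in KO estrus against diestrus 26 higher and 2 lower (62.2% beside 30.7%, 0.39). With the diestrus mice of 14 weeks or more, 0 of the 45 passed by limma in each of these comparisons (4, 4 and 0 at an unadjusted p under 0.05), beside 0% of all genes, and the medians were 0.035, 0.057 and 0.076. The values that follow are from all diestrus mice. The sortilin relatives Sorl1 and Sorcs3 were higher in all 3, by 0.81, 0.75 and 0.75 for Sorl1 and 0.82, 0.84 and 0.89 for Sorcs3. The convertase Pcsk2 was higher in WT estrus by 0.53 and in KO estrus by 0.51. Rtn4r, the Nogo receptor that can pair with p75NTR, was higher in KO proestrus than diestrus by 1.14 (FDR = 7.5e-06) and Dusp1, a phosphatase induced by activity, by 1.19. Maged1, a p75NTR adaptor, was lower in the same 3 comparisons (-0.30, -0.51 and -0.39). In KO diestrus against males 6 were higher and 17 lower (51.1% called beside 28.7% of all genes, and 0 of 45 with the older diestrus mice, 3 at an unadjusted p under 0.05), among them Rtn4r (-1.01), its partner Lingo1 (-0.58) and Pcsk2 (-0.57).

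By role, with all diestrus mice, the ligand and receptor list had 7 of 8 members higher in KO proestrus than diestrus (19.4% of all genes) and 6 of 8 in KO estrus (19.3%), and the activity and BDNF induced genes 6 of 10 and 9 of 10. The regulators of Bdnf transcription had 0 of 7 higher and 2 lower in KO proestrus, and 1 higher and 1 lower in KO estrus. Of the activity and BDNF induced genes 1 of 10 was lower in KO proestrus. With the older diestrus mice none of these role lists kept a call. In the young against the older diestrus mice 3 of the 45 were higher and 17 lower (44.4% called beside 35.5% of all genes), led by Sorl1 (-0.91), Pcsk2 (-0.71) and Sorcs3 (-0.95). Of the 16168 genes tested, 2499 were higher and 3243 lower in that comparison.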

How the data were processed

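Dorsal hippocampal RNA of 55 mice was sequenced as 2 x 150 base reads after SMARTer Ultra Low amplification. The authors deposited gene counts and, per transcript, estimated counts. STAR 2.7.9a, featureCounts 2.0.3, Salmon 1.5.2 and GRCm38 are named per the labels, with no role for each tool. Transcript totals were 7722436 to 19590111. Repeated lines (287 genes, 645 transcripts), 5 ribosomal genes and 1 column per table that matches no listed sample were left out, and estimated counts were rounded. Features above 1 CPM in at least 10 libraries were TMM-scaled and fitted with limma 3.58.1 (voomWithQualityWeights, 10 group means, R 4.3.3), with Benjamini-Hochberg adjustment within each comparison, after tests on simulated data. Transcript shares were divided by length and compared by exact permutation, or by permutation with 100000 resamples where both groups had 10 or more mice. edgeR 4.0.16, DESeq2 1.42.0, voom without weights, other filters, age, parents, a block by mouse number and omission of each mouse were alternatives. Replicates are mice, and no pair of libraries of the same group agreed within sampling noise (lowest chi-square per degree of freedom 14.5). Pairs across groups were not compared. The members and lists were chosen with earlier results of these data known. The text names all 8 members, the 3 genes most correlated with each (1 of them is not reported here), and pathway genes among the 3 of lowest FDR in a comparison, with their values in the others. Counts of paralogs and overlapping transcripts may be split by the counting.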

Additional observations from a re-analysis of the deposited data

Results flagged for a closer look

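In 8 of 120 sets of member levels or transcript shares within a group, 1 mouse lay far from the rest by Dixon's criterion, where chance gives about 1 in 20. Bdnf in WT diestrus was 78.0 CPM in mouse 548 and 118.9 to 135.6 in the others. Bdnf in KO estrus was 356.7 CPM in mouse 12_1 and 102.4 to 125.3 in the others, and Nrn1 in the same mouse was 511.2 CPM against 229.1 to 285.1. The share of Bdnf-205 in that mouse was 43.6% against 65.9% to 73.1%. Ntrk2 in WT metestrus was 148.9 CPM in mouse 3_3 and 183.2 to 188.1 in the others, and in KO proestrus 235.0 CPM in mouse 12_4 and 178.7 to 183.1 in the others. Vgf in WT diestrus was 17.8 CPM in mouse 2_2 and 5.79 to 8.24 in the others. The share of Bdnf-205 in KO proestrus was 56.1% in mouse 14_2 and 75.3% to 77.1% in the others.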

How the results depend on the processing

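The counts of members called moved with the test and with the diestrus mice. Between WT stages, 5 calls became 0 with edgeR, 0 with DESeq2, 1 without sample weights, 3 with no filter, 3 with age as a covariate, 1 with diestrus mice of 14 weeks or more, 16 with those under 14 weeks and 1 with mice whose label joins 2 numbers. Between KO stages, 12 became 1, 1, 1 and 6 with edgeR, DESeq2, no weights and no filter, and 0 with diestrus mice of 14 weeks or more. The KO count was 9 with age as a covariate and 14 with diestrus mice under 14 weeks. Of WT stages against males, 0 became 4 with diestrus mice under 14 weeks and 6 in the 1 comparison left with Cnih3 x B6 parents. Counts from fits with diestrus mice under 14 weeks or with Cnih3 x B6 parents are given without the share of all genes called. They therefore do not show anything particular to the members. Of KO stages against males, 5 became 0 with edgeR, DESeq2 or no weights, 2 with no filter, 1 with age, 1 with the older diestrus mice and 7 with those under 14 weeks. For any stage difference, 8 became 0 with edgeR, DESeq2, no weights or the older diestrus mice, and 0 of 3 with labels of 2 numbers. That count stayed 8 with age as a covariate and was 11 with diestrus mice under 14 weeks. For transcripts, 11 became 0 with edgeR, no weights or the older diestrus mice, 1 with age and 5 with a filter of 0.25 CPM. With the older diestrus mice the sign turned for Sort1 in KO diestrus against metestrus (0.25) and males (0.24) and in KO proestrus (-0.081) and estrus (-0.032) against diestrus, for Ntrk3 in KO proestrus against diestrus (-0.018) and KO diestrus against males (0.15), and for Vgf in KO estrus against diestrus (-0.040). Leaving out each mouse gave 0 to 12 calls between WT stages, 7 to 14 between KO stages, 0 to 5 and 4 to 7 against males in WT and KO, 0 to 2 between genotypes, 0 to 1 for interactions, 4 to 10 for any stage difference, 4 to 16 for transcripts (4 without 532, 6 without 645, 7 without 548, 549 or 569) and 0 to 0 for shares. The cause of these changes was not tested. The labels do not say what a mouse number marks. With the first number of the label as a replicate block, an alternative chosen after seeing the data (37 numbers, 8 of them shared by 26 mice), the correlation within a number was -0.00248, and the counts of calls were as without the block except 7 in place of 8 for any stage difference, where Ngfr in KO was lost (FDR = 0.0502). Ngfr, at 10 to 108 counts, is the member most limited by depth.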
